A study of Mus musculus with 4 samples.

Results

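Hao2, Lrtm1, Gm12718 and Neurog1 are genes whose RNA was among the lowest in liver with hepatocyte loss of Mboat7, which the labels call Lpiat1, relative to control liver. They were chosen from the arrays themselves. Hao2, Lrtm1 and Gm12718 had, apart from Cfd, the lowest values of knockout minus control on high fat diet (HFD) among genes detected in both genotypes on that diet, and Neurog1 came at place 4 when a gene had to be lower on both diets. They are 4 of the 23462 genes that the probes could be matched to, and each has 1 probe among the 56605 probes of the array, printed as 1 spot. Because the genotype differences chose them, these differences are a description, and every other comparison below uses the same 4 arrays and is not independent of that choice. Liver total RNA came from male mice on a C57BL/6 background, 24 weeks old, of which all carried the floxed Lpiat1 allele. The control mice (F/F) lacked Cre, and the hepatocyte-specific Lpiat1 knockout mice (LKO) carried Alb-Cre, a Cre recombinase under the albumin promoter, so that liver cells other than those of the hepatocyte lineage keep the gene. From the age of 6 weeks, mice of both genotypes ate chow or HFD for 18 weeks. Each of the 4 combinations of genotype and diet was measured on 1 array, and it is not stated whether the RNA on it came from 1 mouse or was pooled. With 1 array per condition there is no replicate error, no difference was tested and no p-value is given.

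The members do not form a pathway. Hao2 encodes hydroxyacid oxidase 2, a flavin enzyme of the peroxisome, the organelle in which very long and branched fatty acids and several small acids are oxidised. It oxidises longer 2-hydroxy acids, whereas its relative Hao1 is the liver glycolate oxidase that makes glyoxylate. Lrtm1 encodes a membrane protein with leucine-rich repeats, a repeat found in many proteins of the cell surface. Neurog1 encodes neurogenin 1, a basic helix-loop-helix (bHLH) transcription factor known for committing precursors to a neuronal fate, in a circuit in which Notch signalling and its Hes and Hey repressors oppose such factors. Gm12718 is a long non-coding RNA with no named function.

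Values are the processed signal of a spot, the brightness that the extraction software gave after background subtraction, and differences are in log2 of that signal relative to the 75th percentile over the array's spots. Between 53.0% and 57.0% of the spots of an array were called well above background by the software, and no spot was saturated. The lowest signal so called lay between 7.80 and 8.35 on the 4 arrays. A probe under that call on 1 array of a comparison has only a bound, given as "at least", and a probe under it on both has no value. Replicate spots of a probe on the same array differed with a SD of 0.0758 (log2) at signals over 100, of 0.24 at signals of 20 to 100 and of 0.48 under 20, a technical spread that leaves out differences between mice and that rests on 11 pairs of probe and array in the dimmest class. The error printed beside a signal is the software's own estimate for that spot. The probe of Mboat7 read 1102 in F/F and 861 in LKO on chow, and 1181 and 1100 on HFD, which is -0.30 in LKO on chow and -0.27 on HFD. Whether this probe lies in the deleted exons is not stated, so it does not check the labels. The 8 hepatocyte markers were well above background on every array. The arrays also differed in marker genes of another organ, and the origin of this RNA was not tested. All 8 markers of the exocrine pancreas were higher on LKO HFD and 7 of them at least 2-fold, with a median of 1.82. Of all genes with a value on HFD, 45.9% lay above 0 and 2.36% were at least 2-fold higher. The summed level of the 8 markers relative to the 75th percentile on HFD was 12.3 in F/F and 45.7 in LKO, against 23.4 and 13.9 on chow. Amy2a5 (pancreatic amylase) read 1553 in F/F against 7177 in LKO on HFD. On chow these markers went the other way, with 8 of 8 lower in LKO, where 49.3% of all genes with a value lay below 0, and a median of -1.18.

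The stretches around the start sites of the members that RefSeq gives a promoter for are shown so that the start regions of genes that were low on the same array can be compared. They are 300 bases each from GRCm38.p6, with 250 before and 50 after the annotated start, read 5′ to 3′ on the strand of the gene. Hao2 lies on chromosome 3 on the minus strand (chr3:98893181-98893480), Lrtm1 on chromosome 14 on the plus strand (chr14:29017958-29018257) and Neurog1 on chromosome 13 on the minus strand (chr13:56252131-56252430). Capitals mark the matches to the 4 motifs searched.
Hao2: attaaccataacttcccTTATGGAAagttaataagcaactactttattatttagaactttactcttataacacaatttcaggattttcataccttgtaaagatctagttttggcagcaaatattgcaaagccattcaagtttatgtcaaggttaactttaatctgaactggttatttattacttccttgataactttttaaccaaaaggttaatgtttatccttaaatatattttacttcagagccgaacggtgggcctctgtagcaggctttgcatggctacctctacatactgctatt
Lrtm1: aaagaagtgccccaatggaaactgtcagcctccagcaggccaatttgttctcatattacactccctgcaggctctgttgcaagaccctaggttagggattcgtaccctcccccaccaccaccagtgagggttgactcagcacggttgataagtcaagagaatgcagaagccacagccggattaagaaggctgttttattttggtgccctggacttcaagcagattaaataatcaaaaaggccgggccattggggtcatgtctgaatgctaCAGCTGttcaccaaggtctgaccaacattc
Neurog1: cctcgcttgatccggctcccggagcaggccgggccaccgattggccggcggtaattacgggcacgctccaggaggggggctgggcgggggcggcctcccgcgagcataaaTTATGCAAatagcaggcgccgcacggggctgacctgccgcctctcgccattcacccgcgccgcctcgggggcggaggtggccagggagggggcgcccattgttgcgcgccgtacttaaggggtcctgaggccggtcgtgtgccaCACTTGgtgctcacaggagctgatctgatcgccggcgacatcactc

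The promoters of these genes differ in composition, with 32.3% G and C in Hao2, 49.3% in Lrtm1 and 69.3% in Neurog1. Over all 32851 promoters of the table the median was 52.7%, the 5th percentile 36.3% and the 95th percentile 73.7%, so Hao2 falls below the 5th percentile. The letters searched on both strands were TTCNNNGAA (STAT), a direct repeat of AGGTCA with 1 base between, which nuclear receptors bind, CANNTG (E-box, the letters that bHLH factors such as neurogenins bind) and TTATGNAA (D-box). An E-box stood in Lrtm1 (CAGCTG) and in Neurog1 (CACTTG), and in 72.3% of all promoters. A D-box stood in Hao2 (TTATGGAA) and in Neurog1 (TTATGCAA), and in 3.38% of all promoters. The STAT letters, held by 8.30% of all promoters, and the direct repeat, held by 0.0396%, were in none of the 3 windows, which says only that these letters are not there. No matches overlapped, and a match is a description of letters, not of binding.

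Hao2 was detected on HFD and not on chow. On chow its signal was 2.27 ± 1.72 in F/F and 1.95 ± 1.79 in LKO, both not well above background, and on HFD it was 113 ± 11.5 in F/F and 9.72 ± 1.96 in LKO. The F/F HFD array alone was high, at 13.6 times the lowest detected signal of that array, and the LKO HFD array was just over the limit, at 1.25 times its own. The raw spot brightness was 140 in F/F against 43 in LKO on HFD, where both chow arrays read 38, with a local background of 27 to 31. On HFD the LKO signal was 13.1-fold lower (log2 difference -3.71, software error 0.33). In whole liver, fewer cells of a type and less RNA per cell cannot be told apart. On chow neither array measured the gene and no difference can be given. In F/F the HFD signal was at least 12.2-fold higher than on chow. In LKO the HFD signal did not exceed the bound set by the chow array, so the diet response there has no value and was not detectable at this brightness.

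Lrtm1 was well measured on all arrays and low on LKO HFD alone. On chow its signal was 382 ± 38.2 in F/F and 245 ± 24.5 in LKO, and on HFD it was 427 ± 42.7 in F/F and 35.8 ± 3.98 in LKO. The arrays other than LKO HFD lay between 245 and 427, and LKO HFD was far under them yet 4.58 times the lowest detected signal. LKO differed from F/F by -0.59 on chow and was 13.4-fold lower on HFD (-3.74). HFD minus chow was -0.09 in F/F, close to the technical spread and turned to 0.04 with normexp background correction, and in LKO the signal was 9.47-fold lower on HFD (-3.24). The difference between the genotype differences, HFD minus chow, was -3.16 with a software error of 0.30.

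Gm12718 followed the same course at a lower brightness. On chow its signal was 125 ± 12.6 in F/F and 79.5 ± 8.17 in LKO, and on HFD it was 96.9 ± 9.89 in F/F and 8.85 ± 1.97 in LKO. LKO HFD was the low array, and there the spot was only 1.13 times the lowest detected signal. LKO was 1.51-fold lower than F/F on chow (-0.59) and 12.3-fold lower on HFD (-3.62, software error 0.35). On HFD the signal was 1.53-fold lower than on chow in F/F (-0.61) and 12.5-fold lower in LKO (-3.64). The genotype differences on the diets differed by -3.03 with a software error of 0.41.

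Neurog1 was dim on all arrays and lower in LKO on either diet. On chow its signal was 22.0 ± 2.81 in F/F and 9.97 ± 2.09 in LKO, and on HFD it was 51.3 ± 5.47 in F/F and 18.7 ± 2.55 in LKO. F/F HFD was the high array and LKO chow the low one, and F/F chow and LKO HFD were close, at 22.0 and 18.7. LKO was 2.12-fold lower on chow (-1.09, software error 0.35) and 3.07-fold lower on HFD (-1.62, software error 0.25). The LKO chow spot was only 1.23 times the lowest detected signal. With normexp background correction the genotype differences were -0.14 on chow and -0.58 on HFD. Against chow, the value on HFD was 1.96-fold higher in F/F (0.97) and 1.36-fold higher in LKO (0.44, software error 0.36), the latter turning to -0.18 with normexp background correction. The genotype differences on the diets differed by -0.53, close to the software error of 0.43. At signals under 20, where LKO chow and LKO HFD lay, replicate spots already differed by 0.48 (SD, log2).

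**Figure D1:**
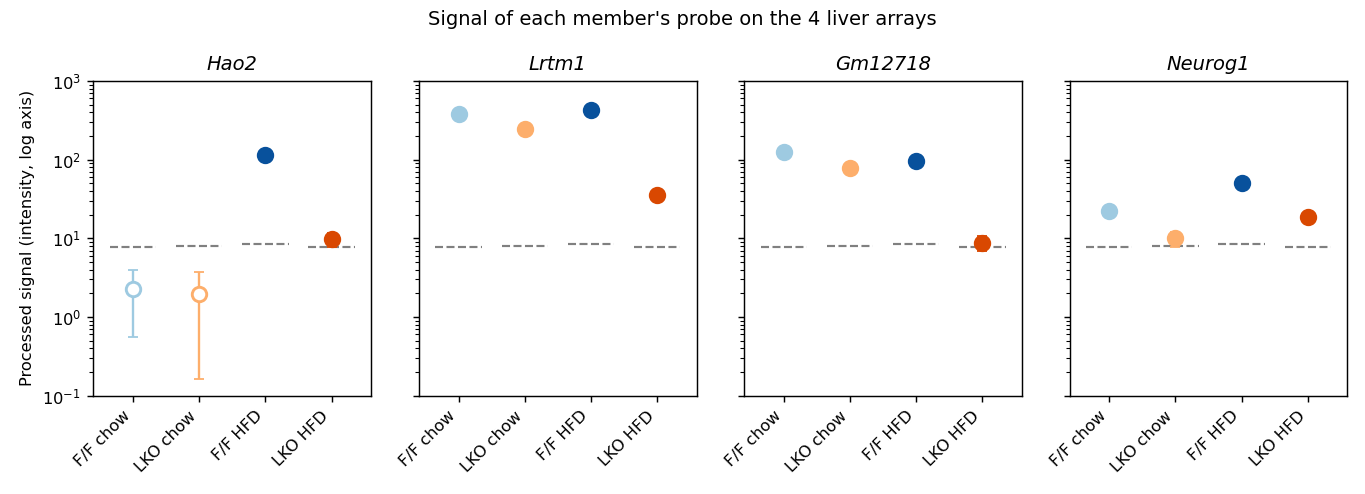
Processed signal (intensity, log axis) of the probe of each gene on the 4 arrays, with bars for the software's error of the spot. Open circles are not well above background and dashed lines mark the lowest signal called well above background on each array. LKO HFD sits at 35.8 for Lrtm1 and at 8.85 for Gm12718, far under the other arrays, while Hao2 lies far over the dashed line on F/F HFD alone.

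On HFD all 4 genes were at least 2-fold lower in LKO, in a comparison in which 1.91% of the 15528 genes with a value were called lower and 2.36% higher. This count restates how the genes were chosen. Over the 14677 genes detected in both genotypes on HFD, the order from the lowest was Cfd at -3.90, Lrtm1 at -3.74, Hao2 at -3.71 and Gm12718 at -3.62, and Neurog1 stood at place 45. The 3 members at the head differed among themselves by less than their software errors, so their order carries nothing. Just outside them were Cyp2b13 at -3.15 and Cxcl13, a chemokine that attracts B cells, at -3.14. Next came Slc22a7, an organic anion transporter, at -2.84, Grin3b and Hsd3b5 at -2.83, and Lamb3, a laminin chain, at -2.71. A further 264 genes, detected on F/F HFD and not on LKO HFD, have only a bound and no place in this order. No bound was as low as the difference of Hao2. At their own signals, which are background on LKO HFD, 37 of the 264 were at or below Hao2. The order therefore holds only for genes detected in both genotypes.

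On chow the same genes stood apart less. Neurog1 was the only one of the 3 members with a value that was at least 2-fold lower, in a comparison in which 1.03% of 14981 genes were called lower and 1.11% higher. It stood at place 53 of 14185 measured genes, Gm12718 at 333 and Lrtm1 at 347, while Tmem89 was lowest of these at -3.00. Of the 14619 genes with a value on both diets, 0.0547% were at least 2-fold lower on both, and Neurog1 was among them. Ordered by the smaller of both differences over the 13981 genes detected everywhere, Cxcl13, Gadd45a and Hsd3b5 came before Neurog1, and Egr1, an immediate early transcription factor, came just after it with a smaller difference of -1.04. Gm12718 and Lrtm1 took places 56 and 58 in that order. Over all genes the median of LKO minus F/F was 0.00 on chow and -0.03 on HFD.

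**Figure D2:**
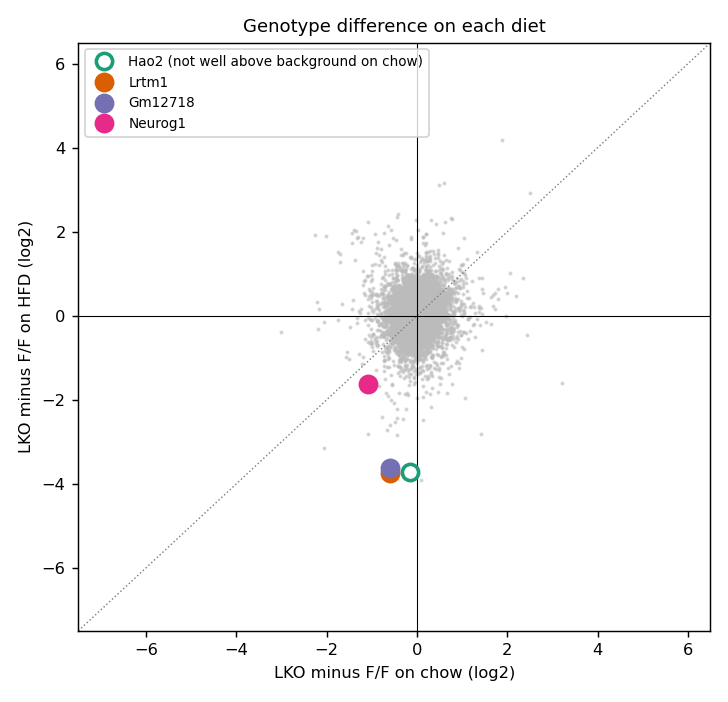
LKO minus F/F on chow (x axis, log2) against LKO minus F/F on HFD (y axis, log2). Grey points are genes detected on every array, the dotted line marks equal differences, and the open circle is Hao2 at its own signals, which are background on chow. Lrtm1 (-0.59 and -3.74) and Gm12718 (-0.59 and -3.62) lie together, and Neurog1 lies nearer to the line of equal differences.

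**Figure D3:**
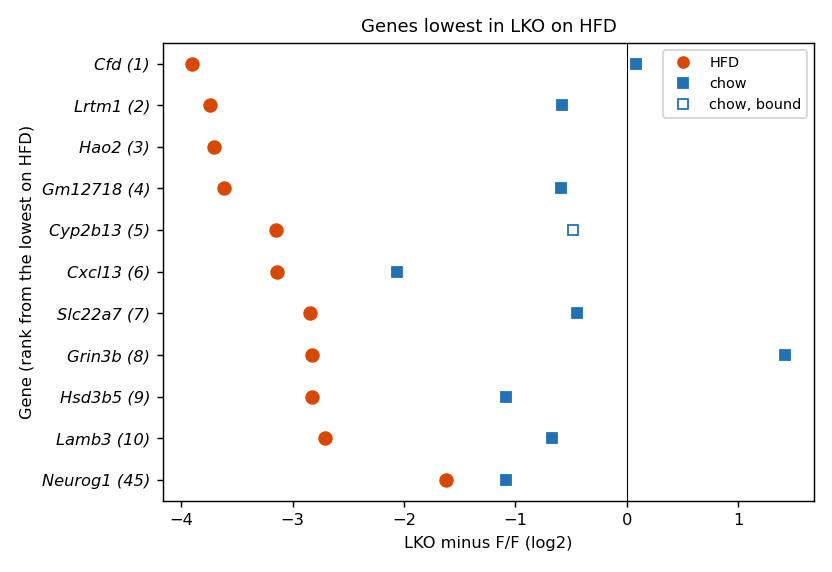
LKO minus F/F (x axis, log2) of the 10 genes lowest on HFD and of Neurog1, with their rank in brackets. Circles are HFD, filled squares chow and the open square a bound on chow, and Hao2 has no square because it was not detected on chow. Cfd stands at 0.09 on chow and -3.90 on HFD, Grin3b at 1.42 and -2.83, and Cxcl13 at -2.06 and -3.14.

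The comparison on HFD rests on the F/F HFD and LKO HFD arrays, which also differed in the pancreas markers given above, and the part of these markers in the low values of the 4 genes was not tested. The summed level of the 8 hepatocyte markers in F/F and LKO was 3805 and 3893 on chow and 3007 and 2612 on HFD, and their median difference on HFD was -0.19.

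Markers of other tissues, among them those in which Neurog1 and Hao2 are better known, were summed in the same way. For neurons, 7 of 8 markers were detected on 3 of the arrays and 6 of 8 on F/F chow, the summed level in F/F and LKO was 9.74 and 8.99 on chow and 6.22 and 5.11 on HFD, and the median difference on HFD was -0.06. For the kidney proximal tubule, a main site of Hao2, the summed level was between 0.213 and 0.349, with 2 or 3 of 7 markers detected. For skeletal muscle it was between 1.05 and 1.88. On HFD the adipocyte markers summed to 433 in F/F and 222 in LKO. Most of either sum was Car3, the brightest of them, which read 90240 in F/F and 48400 in LKO. Of the adipocyte markers Cfd differed by -3.90 and Car3 by -1.07, while Fabp4 (0.26), Adipoq (0.63) and Retn (0.92) were higher in LKO. The 5 red blood cell markers with a probe summed to 199 on F/F HFD and to between 101 and 107 on the other arrays. Among liver cell types, the medians of LKO minus F/F on HFD were 0.36 for macrophage, 0.34 for stellate cell, 0.78 for cholangiocyte and 0.11 for sinusoidal endothelial markers. The macrophage markers were mixed, with 5 of 7 higher and 2 lower, Marco (-1.64) and Timd4 (-0.95). The part of the markers of these tissues and cell types in the values of the 4 genes was not tested.

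The diet response of the members took 3 forms. Hao2 was called higher on HFD in F/F as a bound, where 5.21% of 15358 genes were at least 2-fold higher and 2.94% lower, and had no value in LKO. Lrtm1 and Gm12718 were not called in F/F and were both at least 2-fold lower on HFD in LKO, where 4.07% of 15242 genes were called lower and 8.12% higher. Neurog1 was higher on HFD in either genotype, in LKO not with normexp, and was called in neither. In F/F its value of 0.97 was just under the threshold, and it passed it with the percentile taken over detected probes (1.01), with quantile normalization (1.03) and with the deposited table's own factors (1.11), but was 0.26 with normexp. The medians over all genes were -0.02 in F/F and -0.07 in LKO.

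**Figure D4:**
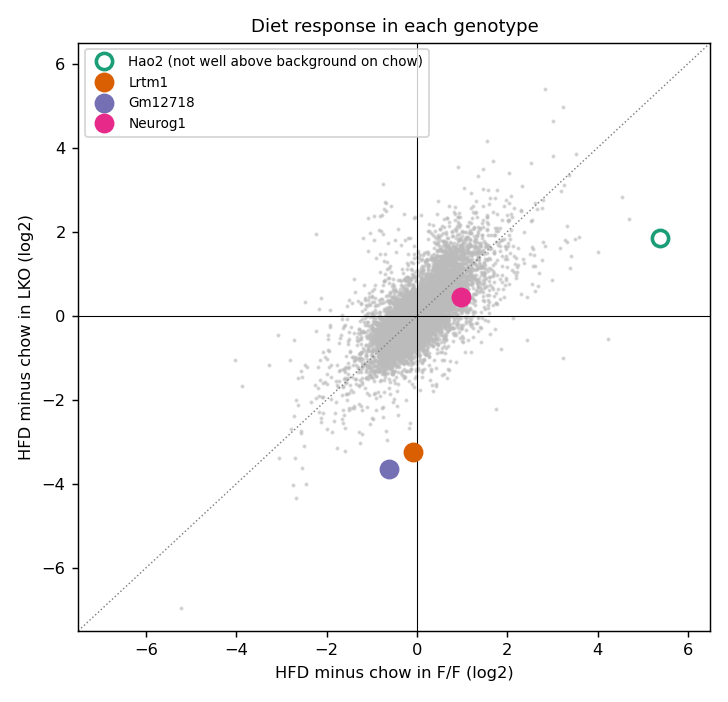
HFD minus chow in F/F (x axis, log2) against HFD minus chow in LKO (y axis, log2), with grey points for genes detected on every array and a dotted line of equal responses. Lrtm1 lies at -0.09 in F/F and -3.24 in LKO, Gm12718 at -0.61 and -3.64, and Neurog1 at 0.97 and 0.44. Hao2 is drawn open at its own signals, 5.39 and 1.85, because its chow signals are background.

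For Hao2, 19 other peroxisomal oxidases and enzymes of 2-hydroxy acids and glyoxylate were examined, of which 18 had a value and Dao was not detected. On HFD, 17 of the 18 were lower in LKO, where 54.1% of all genes with a value lay below 0, and none reached 2-fold. Their median was -0.31 on HFD, 0.03 on chow and -0.03 over all genes on HFD. Agxt, which turns glyoxylate into glycine, differed by -0.66, Pipox, which oxidises pipecolate and sarcosine, by -0.65, and Hao1 by -0.37. Hao1 read 7482 in F/F and 7020 in LKO on chow and 8172 and 7108 on HFD, so the liver relative of Hao2 was bright and nearly level on the arrays where Hao2 went from background to 113. Hacl1, which splits 2-hydroxy acyl-CoA, was the exception at 0.14. The median of the list for HFD against chow was -0.49 in LKO and -0.09 in F/F, and with quantile normalization these were -0.15 and 0.14. All 16 peroxisome biogenesis genes (Pex) were lower in LKO on HFD as well, none by 2-fold, with a median of -0.26 against 0.02 on chow, where other settings gave -0.02 to 0.06.

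**Figure D5:**
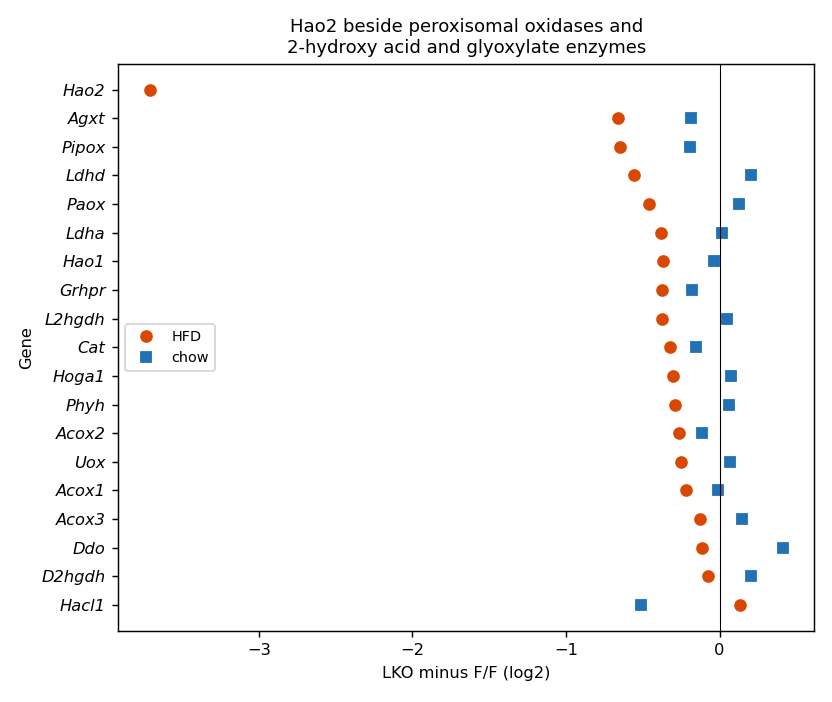
LKO minus F/F (x axis, log2) of Hao2 and of the 18 listed enzymes with a value, on HFD (circles) and on chow (squares). Hao2 stands at -3.71 on HFD and has no value on chow. The enzymes span -0.66 (Agxt) to 0.14 (Hacl1) on HFD and -0.51 (Hacl1) to 0.41 (Ddo) on chow.

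For Neurog1, 5 of 18 other proneural bHLH factors had a value on HFD, and 1 was at least 2-fold lower. That gene was Olig1, a bHLH factor of the oligodendrocyte lineage, with 134 in F/F and 180 in LKO on chow and 374 and 177 on HFD. As for Neurog1, the F/F HFD array was the high one. Olig1 differed by 0.48 on chow and -1.25 on HFD. Neurog3, the neurogenin of endocrine pancreas and gut, read 39.4 in F/F and 29.6 in LKO on chow and 24.8 and 32.1 on HFD, and differed by -0.36 on chow and 0.20 on HFD. Neurog2 was well above background on LKO HFD alone, at 8.45, and its signal there did not exceed the bound. Of 22 genes of the Notch pathway and of the partners and inhibitors of neurogenins, 17 had a value on HFD, 14 were higher in LKO, where 45.9% of all genes with a value lay above 0, and the median was 0.20 against -0.03 over all genes. The only 1 of the 17 to reach 2-fold, where 2.36% of all genes were that much higher, was Hey1. Hey1, a Notch target, was at 1.15, with 48.5 in F/F against 121 in LKO on HFD. Id3, an inhibitor of bHLH factors, was at 0.95 and Hes1 at 0.66.

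For Lrtm1, 10 of 29 other neuronal leucine-rich repeat membrane proteins had a value on HFD, with a median of 0.14 that turned to -0.01 with normexp background correction and to -0.26 without filter or floor, where undetected genes enter too. Lrfn3 was at least 2-fold higher in LKO (1.08) and Lrrc4 at least 2-fold lower as a bound (-1.03), where 2.36% of all genes with a value were higher and 1.91% lower. Lrtm2, named alike, was well above background on LKO HFD alone, at 18.5, the array on which Lrtm1 was lowest.

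The genes next to the members on the chromosome had other patterns over the arrays. Hao2 stands beside Hsd3b1, a steroid dehydrogenase, which read 83.3 in F/F and 72.0 in LKO on chow and 83.8 and 68.1 on HFD, and differed by -0.47 on HFD. Gm12440, a long non-coding RNA on the other side, differed by -0.45. Farther along lies the Hsd3b cluster, looked at after its values were seen, in which Hsd3b5 was 7.09-fold lower in LKO on HFD (-2.83), Hsd3b2 was at -1.08, Hsd3b6 at -0.70 and Hsd3b3 at -0.54. These near-identical copies may share signal. Hsd3b5 read 8835 in F/F and 3997 in LKO on chow and 281 and 44.5 on HFD, so it was lower on HFD in both genotypes (-5.22 in F/F and -6.96 in LKO), whereas Hao2 was higher on HFD in F/F.

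Lrtm1 lies inside the span of Cacna2d3, a calcium channel subunit, whose probe read between 1.62 and 1.80 and was not well above background on any array, so the host gene was not detected where Lrtm1 read 427. Gm12718 is next to Oma1, a protease of the mitochondrial inner membrane, which read 158 in F/F and 147 in LKO on chow and 250 and 226 on HFD, and differed by -0.04 on chow and -0.32 on HFD. Beside Neurog1, Tifab was not detected, the long non-coding RNA 4930550C17Rik differed by -0.05 on HFD, and Cxcl14, a chemokine, was higher in LKO by 0.59 with 173 in F/F against 293 in LKO on HFD. The other neighbours had no matched probe.

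The likeness of 2 genes was taken as the largest gap between their log2 values over the 4 arrays, after each gene's mean was subtracted, among 15908 genes bright enough on their brightest array. With 4 arrays this is a description only. Signals under the background call enter these gaps at their own value, so a gap that rests on such a signal is inexact. Gm12718 was the gene most like Lrtm1, with a gap of 0.29, and the genes next to both in pattern were Dkk4, a secreted Wnt inhibitor, at 0.50 from Lrtm1 and 0.28 from Gm12718, and Capn8, a calpain protease, at 0.75 and 0.53. Dkk4 read 23.6 in F/F and 10.6 in LKO on chow and 13.6 and 1.71 on HFD, and was not well above background on LKO HFD. Slc22a7, at 0.60 from Lrtm1, was bright, with 1909 in F/F and 1350 in LKO on chow and 2027 and 318 on HFD. Trhde stood at 0.58 from Lrtm1, and Dlgap1 at 0.61 and Cnmd at 0.71 from Gm12718. On LKO HFD the probes of Trhde, Dlgap1 and Capn8, like that of Dkk4, were not well above background, at 1.86, 1.79 and 1.71, nor was Trhde on LKO chow.

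Derl3, a protein of the degradation path of the endoplasmic reticulum, was most like Neurog1, with a gap of 0.13 and signals of 208 in F/F and 111 in LKO on chow and 523 and 184 on HFD. Derl3 differed by -0.85 on chow and -1.68 on HFD. The others near Neurog1, which were 4930557J02Rik, Sbspon, Cdc25c and Gm11266 at gaps of 0.22 to 0.29, were detected on F/F HFD alone. The same held for the 5 genes nearest to Hao2. These were Sv2b (98.6 on F/F HFD, gap 0.72), Bub1, 4930451G09Rik, Sox14 and Gm20752 (gap 0.89), which read under 10 and were not well above background on each of the other arrays. Hao2 itself was under that call on chow, so these gaps compare background signals on at least 2 of the 4 arrays.

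Cyp2b13, the gene just outside the lowest members on HFD, is a cytochrome P450 known to be higher in female mouse liver, and 18 of 24 genes of that kind had a value on HFD. Cyp2b13 read 11.7 in F/F and 2.09 (not well above background) in LKO on chow and 461 and 58.4 on HFD, and was high on F/F HFD as Hao2 was. Cyp2b9 read 1855 in F/F and 1184 in LKO on chow and 13480 and 2478 on HFD, and differed by -2.61 on HFD. Slc22a27 read 13.9 in F/F and 22.8 in LKO on chow and 429 and 156 on HFD, and differed by -1.62. These 3 were at least 2-fold lower in LKO, Nipal1 (1.36) and Atp6v0d2 (1.43) were at least 2-fold higher, and the median of the list was -0.11. Over all genes with a value on HFD, 1.91% were at least 2-fold lower and 2.36% higher, with a median of -0.03. Cyp2b9 and Cyp2b13 are close copies whose probes may share signal. Among genes known to be higher in male liver, 1 of 16 with a value, Hsd3b5 (-2.83), was at least 2-fold lower in LKO on HFD and 2 were at least 2-fold higher. By sign, 13 of the 16 were lower and 3 higher, where 54.1% of all genes with a value lay below 0. The median was -0.23. HFD against chow gave medians of -1.60 in F/F and -1.19 in LKO for these genes, against -0.02 and -0.07 over all genes. Targets of PPAR alpha, the fatty acid receptor that controls many peroxisomal enzymes, had a median of 0.28 in LKO against F/F on HFD, with 2 of 16 at least 2-fold higher and none lower.

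How far the low values of the members go depended on the setting with normexp background correction and its offset. The offset added 50 to every signal, which by itself shrinks log2 differences between dim signals. The part of the correction and the part of the offset cannot be told apart here. Hao2 and Gm12718 on LKO HFD and Neurog1 on LKO chow lay close to the limit of detection. With normexp background correction and an offset of 50, LKO minus F/F on HFD was -2.47 for Lrtm1, -1.39 for Hao2, -1.28 for Gm12718 and -0.58 for Neurog1, which left the first 3 past 2-fold and Neurog1 short of it. On chow Neurog1 was then at -0.14. With the other settings tried, the values on HFD lay between -3.77 and -3.70 for Lrtm1, between -3.74 and -3.67 for Hao2, between -3.65 and -3.58 for Gm12718 and between -1.65 and -1.58 for Neurog1.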

How the data were processed

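Liver RNA was labelled with Cy3 and hybridised to 1-colour Agilent arrays, 1 for each genotype and diet. The authors deposited, as given by Agilent Feature Extraction 12.0.3.1, the intensity of each spot after background subtraction, its error, raw spot and background intensity and flags, and a table of values equal to the processed intensity times 1 factor per array (2.60, 2.63, 2.41 and 2.10), whose origin is not given in the sources used here. From the processed intensity, spots of a probe were averaged without outlier spots, and log2 minus the 75th percentile of the array's 59305 non-control spots was computed (numpy 2.4.6 and pandas 2.3.3 under Python 3.11.15). Figures were drawn with matplotlib 3.10.9.

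Accessions were matched to symbols through the RefSeq gene table of GRCm38.p6, for 33767 of 56605 probes (59.7%). The brightest probe by mean over the arrays stood for a gene. Where the flag failed on 1 array of a comparison, that side was set to the higher of the lowest detected signal of the array and its own, and where it failed on both no value was given. The genes named are the members and their neighbours (2 on each side), the 10 lowest on HFD, the lowest on chow, those around Neurog1 in the order of both diets, the 5 most alike in pattern per member, genes of the 19 lists and Mboat7. Others are marked as chosen after their values were seen. The members and lists were chosen with earlier results of these data known. Self-tests used simulated data. Alternatives were normexp (limma 3.58.1 in R 4.3.3), quantile normalization, other percentiles, the deposited table, other probe rules, no floor, a filter on detection, and calling at 1.5-fold and 4-fold. Median spot signals entered normexp. Slide and scan could not be a block, since all arrays share them. Protein comparison was not run. The number of arrays limits the precision.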

Additional observations from a re-analysis of the deposited data

Results flagged for a closer look

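As reported, the genotype differences on the diets and the diet responses in the genotypes went the same way for Lrtm1, Gm12718 and Neurog1, while Hao2 could not be compared, as it has no value for the genotypes on chow or for diet in LKO. With normexp background correction the diet response in F/F and in LKO took opposite signs for Neurog1 (0.26 and -0.18) and Lrtm1 (0.04 and -2.0).

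Of the other genes named above, 15 were flagged for going opposite ways on the diets or in the genotypes by more than a technical spread of 0.096. That is the SD between replicate spots over all detected probes, and it is larger for dim ones. Ddo, at 0.41 on chow and -0.11 on HFD in LKO against F/F, also went opposite ways and is not counted among the 15. Of the 15 genes, 7 reached 2-fold in at least 1 of the opposed differences. None of these differences between effects was tested, as each rests on 1 array per condition. Grin3b, a glutamate receptor subunit, was higher in LKO on chow (1.42) and lower on HFD (-2.83), a change of -4.25, and equally its diet response was 3.24 in F/F and -1.01 in LKO. Cfd, complement factor D, differed between HFD and chow by 1.76 in F/F and -2.23 in LKO, a change of -3.99. Amy2a5 was at -0.58 on chow and 2.04 on HFD in LKO against F/F, a change of 2.62, and its diet response was -1.08 in F/F and 1.53 in LKO. Slc22a27, an organic anion transporter, was at 0.77 on chow and -1.62 on HFD in LKO against F/F, a change of -2.40. Lamb3 responded to HFD by 1.19 in F/F and -0.85 in LKO, a change of -2.04. Olig1 was at 0.48 on chow and -1.25 on HFD in LKO against F/F, a change of -1.73, and its diet response was 1.23 in F/F and -0.50 in LKO. Adipoq was at -1.05 on chow and 0.63 on HFD, a change of 1.69.

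In the other 8 genes the opposed differences were each under 2-fold. The genotype difference changed from chow to HFD by 1.22 for Retn (-0.30 and 0.92), by 0.65 for Hacl1 (-0.51 and 0.14), by 0.56 for Neurog3 (-0.36 and 0.20) and by -0.76 for Gm12440 (0.31 and -0.45). The diet response changed from F/F to LKO by 1.15 for Lrfn3 (-0.90 and 0.25), by -1.0 for Hsd3b2 (0.17 and -0.83), by -0.94 for Car3 (0.13 and -0.81), by -0.76 for Gm12440 (0.10 and -0.66) and by -0.47 for Hsd3b3 (0.21 and -0.26). At signals of 20 to 100 replicate spots differed by 0.24, and 0.10 for Gm12440 in F/F and 0.20 for Neurog3 on HFD lie under that. Their opposite signs are therefore within the spread at that brightness.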

How the results depend on the processing

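Of 126 values of the members recomputed under other settings, 42 could not move, because each member has 1 probe and the deposited table scaled the same way gives the same values. Of the other 84, 62 moved by less than the technical spread over all detected probes (0.096), 22 moved by more and no value of at least 2-fold changed sign. The 62 include values that the setting without filter or floor cannot change, because the gene was detected on both arrays. They therefore overstate how steady the values were. All 7 of the 63 genotype values that moved did so with normexp background correction and its offset of 50. That offset by itself shrinks differences between dim signals, in these values and in the numbers of genes below. The values on HFD were then -2.47 (Lrtm1), -1.39 (Hao2), -1.28 (Gm12718) and -0.58 (Neurog1), and on chow -0.43 (Lrtm1), -0.35 (Gm12718) and -0.14 (Neurog1). Smaller diet responses changed sign for Neurog1 in LKO (0.44 to -0.18 with normexp) and Lrtm1 in F/F (-0.09 to 0.04 with normexp and 0.05 with the deposited table's own factors, a setting chosen after the data were seen). These factors moved the median of all genes for HFD against chow from -0.02 to 0.11 in F/F and from -0.07 to 0.07 in LKO, and the genes at least 2-fold higher and lower from 800 and 452 to 1075 and 337 in F/F and from 1238 and 621 to 1549 and 445 in LKO. In the order lower and then higher, for LKO against F/F on chow, the same on HFD, HFD against chow in F/F and the same in LKO, the numbers of genes were as follows. As reported they were 154 and 167, 296 and 366, 452 and 800, 621 and 1238. With normexp and its offset they were 19 and 20, 85 and 94, 148 and 211, 240 and 428. Without filter or floor they were 807 and 672, 889 and 996, 1351 and 1366, 1508 and 1912. At 1.5-fold they were 519 and 527, 944 and 1253, 1474 and 2033, 1789 and 2347, and at 4-fold 33 and 42, 54 and 53, 94 and 136, 116 and 209. With only genes detected on all arrays, the genotype numbers were 75 and 76 on chow and 170 and 199 on HFD. Fewer genes enter that setting, and the cause of the other changes was not tested. No paired analysis was possible because each condition has 1 array. A block for slide or scan was not run, because all arrays share both, and the comparison of protein sequences was not run. Signals near 8, such as Hao2 and Gm12718 on LKO HFD, limit how exactly a fold can be stated.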
